A study of Cricetulus griseus with 6 samples.

Results

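The RNA-Seq data described here cover 52 genes of DNA replication and the G1-S transition in CHO-T cells after knockdown of *Xbp1*. The genes were chosen by function, with earlier results of these data known, as the subunits and regulators of origin licensing, the MCM helicase, helicase activation, the DNA polymerases, the sliding clamp and its loader, nucleotide supply, the G1 and S cyclins with their kinases, and the RB-E2F switch, together with *Uhrf1*. All 52 were found by symbol among 27873 entries, and all 52 passed a filter on low values that left 14361 genes to test. CHO-T cells are Chinese hamster ovary (CHO) cells infected with a retrovirus that carries mouse T-cadherin cDNA and selected with puromycin, and both groups share this background. The 2 groups, of 3 libraries each, received either a negative control siRNA or an siRNA against *Xbp1*, and RNA was collected 48 h later. *Xbp1* encodes a transcription factor of the unfolded protein response, and the comparison asks how the transcriptome of these cells differs when its mRNA is depleted. The labels do not say whether the 3 libraries of a group came from separate cultures; the study's methods state independent experiments as a general rule, without naming these libraries. The p-values measure the spread between these libraries, which would be technical if they shared a culture. The cells are an infected and drug-selected line grown in culture, and 1 knockdown condition was compared with 1 control condition.

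Before S phase, the origin recognition complex, with Cdc6 and Cdt1, loads the MCM helicase onto chromatin in G1, a step called licensing, and geminin blocks Cdt1 once S phase has begun. Cdc45 and the GINS complex turn the loaded helicase into a moving fork, where the polymerases, the PCNA clamp and the clamp loader copy both strands. Entry into S phase is set by D-type cyclins with Cdk4 or Cdk6 and by cyclin E with Cdk2, which phosphorylate RB proteins and release E2F transcription factors, whose targets include many replication genes. CHO cells divide continuously in culture and use this machinery in every cycle. Bulk RNA cannot tell fewer cells in a phase of the cycle from less mRNA per cell.

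The libraries matched their labels at the targeted gene. *Xbp1* measured 26.0, 26.2 and 28.4 FPKM (fragments per transcript length and library size) in the control libraries and 2.18, 2.11 and 1.39 FPKM after *Xbp1* siRNA. The mean was 7.05% of the control mean, a log2 fold change of −3.78 with a standard error (SE) of 0.16 and an adjusted p of 5.61e-06 by limma. Relative read depth, estimated from the steps between low FPKM values, lay between 94.2% and 116% of that of control library 1, and the sums of all FPKM lay between 593487 and 666267, with the 3 *Xbp1* siRNA libraries lowest. The labels give ovary as the tissue. Of 8 ovarian markers, *Fshr* and *Zp3* were listed at 0 in every library, and *Foxl2*, *Cyp19a1* and *Cyp17a1* were not matched by symbol. *Amh*, *Inha* and *Ddx4* averaged 2.69, 2.63 and 1.63 FPKM in control libraries. The summed level of the list was 6.07 to 7.63 FPKM in control and 6.58 to 8.65 FPKM in *Xbp1* siRNA libraries. Leukocyte and endothelial markers summed to at most 0.154 and 0.412 FPKM, with *Ptprc*, *Cd3e* and *Cdh5* at 0. Among epithelial markers, *Krt18* was at 0. *Epcam* rose from a mean of 1.82 to 4.72 FPKM and *Cdh1* from 0.13 to 0.43 FPKM (log2 fold changes 1.32 and 1.29). The summed level of the epithelial list was 1.83 to 2.16 FPKM in control libraries and 4.59 to 5.79 FPKM after *Xbp1* siRNA. Mesenchymal markers summed to 683 to 721 FPKM in control libraries and 524 to 555 FPKM after *Xbp1* siRNA. They moved both ways, with *Vim* and *Sparc*, which hold most of the sum, lower (log2 fold changes −0.31 and −0.59) and *Fn1* higher (13.1 to 23.3 FPKM, log2 fold change 0.83). The part of these marker differences in the results below was not tested.

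*Xbp1* knockdown was accompanied by changes in both directions within the pathway, most of them modest in size. At an adjusted p under 0.05 by limma, 17 of the 52 genes (32.7%) were lower and 9 (17.3%) were higher, against 20.2% lower and 20.2% higher among all genes tested. The share lower was above this background and the share higher was somewhat below it. The 17 that fell were *Cdc6*, *Cdt1*, *Mcm3*, *Mcm4*, *Mcm5*, *Mcm6*, *Mcm7*, *Pola1*, *Pcna*, *Rfc4*, *Rpa1*, *Lig1*, *Ccnd1*, *Ccnd2*, *Cdk6*, *E2f1* and *E2f2*. The 9 that rose were *Orc2*, *Gmnn*, *Gins3*, *Gins4*, *Pold2*, *Tyms*, *Ccnd3*, *Cdk4* and *Uhrf1*. With a log2 fold change of at least 1 in size required as well, 1 gene was lower (*E2f2*), against 2.5% of all genes tested. With the same limit, 0 were higher by limma, against 2.69% of all genes tested, while 32 of the 52, and 7017 of all 14361 genes tested, had an unadjusted p under 0.05. The control and *Xbp1* siRNA libraries did not overlap, with all 3 *Xbp1* siRNA values below all 3 control values, for 22 genes (42.3%), against 25.8% of all genes tested. The libraries were separated in the opposite direction for 13 genes (25%), against 26.1% of all genes tested. The median log2 fold change of the 52 genes was −0.02 and that of all genes tested was 0.0063, with genes of the pathway on both sides. The median size of the change, without regard to sign, was 0.24 for the 52 genes and 0.27 for all genes tested.

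**Figure D1:**
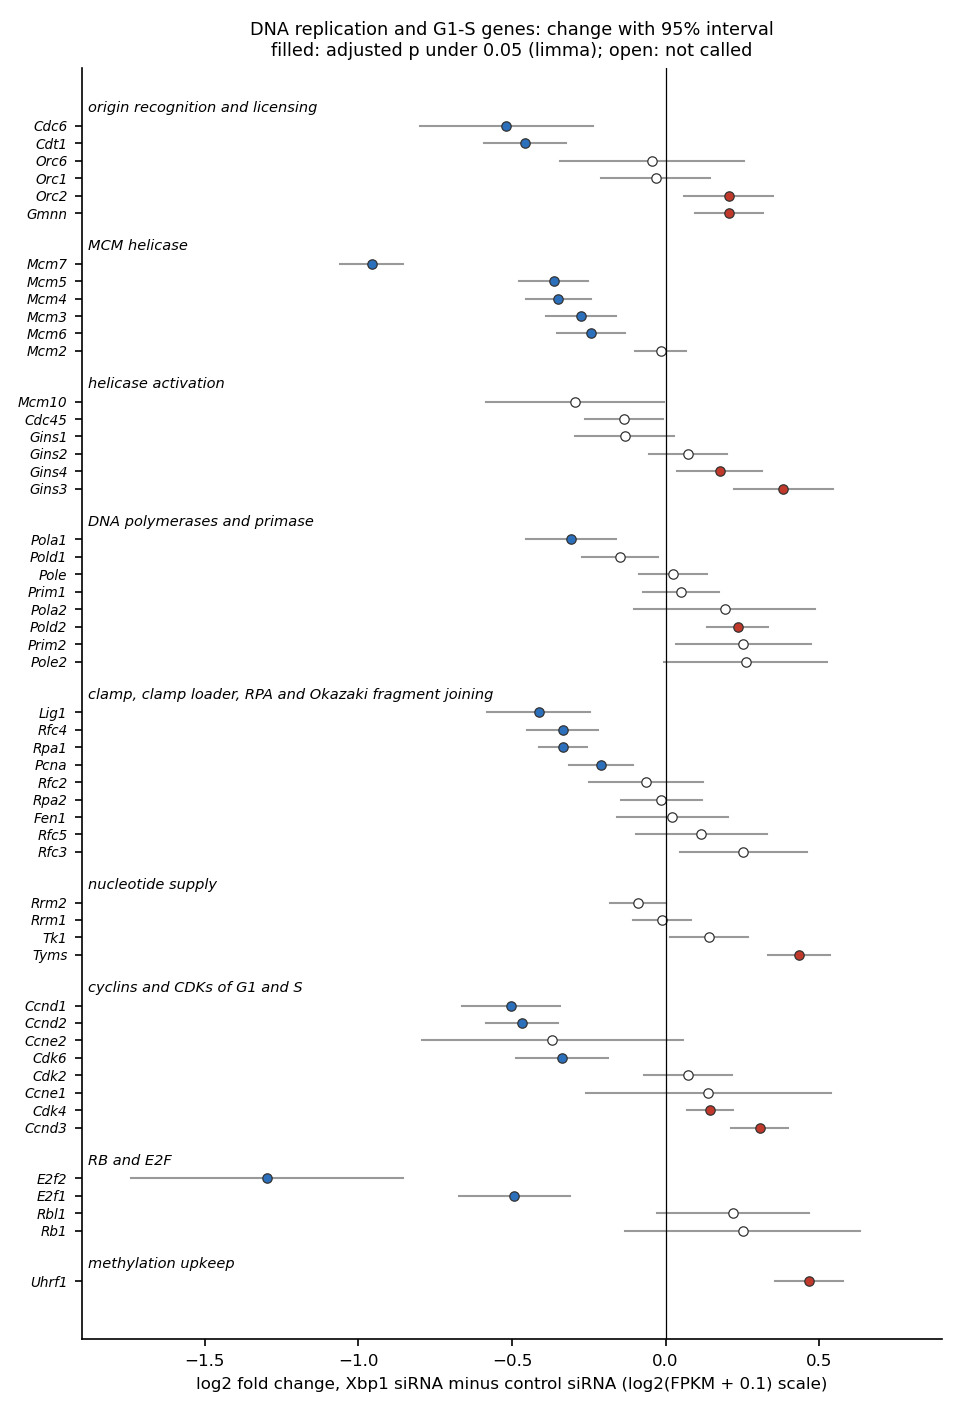
Log2 fold change (*Xbp1* siRNA minus control siRNA, log2(FPKM + 0.1) scale) of each of the 52 genes by role, with 95% confidence intervals from limma, n = 3 libraries per group. Coloured points mark the 17 genes that fell and the 9 that rose at an adjusted p under 0.05, and *E2f2* and *Mcm7* lie farthest below 0.

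**Figure D2:**
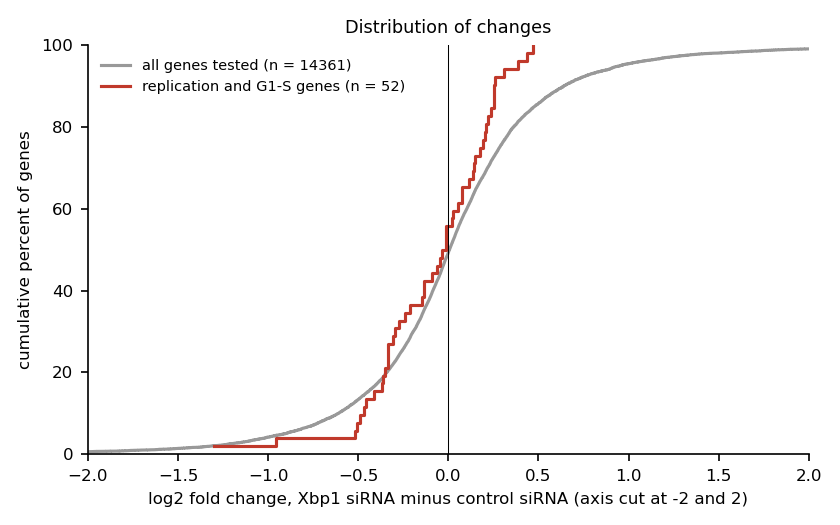
Distribution of log2 fold changes (*Xbp1* siRNA minus control siRNA) of the 14361 genes tested, with the 52 replication and G1-S genes drawn beside it. The medians are 0.0063 for all genes tested and −0.02 for the 52 genes.

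These genes were expressed well above the typical gene. Control means ranged from 2.38 FPKM for *Rb1* to 276 FPKM for *Cdk4*, with a median of 26.0 FPKM against 10.7 FPKM for all genes tested. When only genes averaging at least 1 FPKM were tested, 2917 of 11610 were lower and 2800 higher. These are larger shares than the 20.2% in each direction given above. In that setting 17 of the 52 were lower and 10 higher. The coefficient of variation within a group had a median of 4.57% and the SE of the log2 fold change ranged from 0.032 to 0.19, with the largest SE for *E2f2*. Summed over the 52 genes, the level was 2307 ± 21.8 FPKM (SD, n = 3) in control and 2170 ± 6.53 FPKM in *Xbp1* siRNA libraries. As a share of all FPKM in the library, the same sum was 0.352% in control and 0.363% in *Xbp1* siRNA libraries, so its direction depends on whether the lower total FPKM of the knockdown libraries is taken into account. The exact permutation p was 0.10 for both, the smallest that 3 against 3 libraries allow.

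Of the 6 origin licensing genes, *Cdc6* and *Cdt1* fell and *Gmnn* and *Orc2* rose (33.3% in each direction, against 20.2% of all genes tested). *Cdc6*, the ATPase that helps load MCM, measured 10.5, 9.54 and 9.61 FPKM in control libraries and 5.71, 7.65 and 7.39 FPKM after *Xbp1* siRNA. The groups did not overlap, and the log2 fold change was −0.52 (SE 0.12, adjusted p = 0.011 by limma). *Cdt1*, the partner of Cdc6 in loading, measured 20.8, 22.5 and 21.8 FPKM in control and 15.4, 15.4 and 16.5 FPKM in *Xbp1* siRNA libraries, a log2 fold change of −0.46 (SE 0.057). All 3 knockdown values of *Cdt1* lay below all 3 control values. *Gmnn*, which encodes geminin, measured 56.0, 58.2 and 52.5 FPKM in control and 62.4, 64.9 and 65.0 FPKM in *Xbp1* siRNA libraries, a log2 fold change of 0.21 (SE 0.047, adjusted p = 0.010). Geminin mRNA was thus higher in every knockdown library. The ratio of *Gmnn* to *Cdt1* FPKM went from 2.56 ± 0.143 (SD, n = 3) to 4.06 ± 0.143, a description, since the pair was chosen with both changes known. Of the subunits of the origin recognition complex, *Orc2* had a log2 fold change of 0.21 with an adjusted p of 0.032 by limma, and this call was lost in 6 of 14 other analyses, namely without the variance trend and without control library 1 or 3 or any 1 *Xbp1* siRNA library, with an adjusted p of up to 0.092. *Orc1* and *Orc6* had overlapping groups and log2 fold changes of −0.03 and −0.04, neither called. *Orc1* is the subunit whose amount varies with the cycle in many mammalian cells, and its 95% interval ran from −0.21 to 0.14 on the log2 scale.

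The MCM complex, the ring of 6 related subunits that unwinds DNA, had 5 of its 6 subunits lower (83.3%, against 20.2% of all genes tested). *Mcm7* measured 60.5, 61.1 and 62.5 FPKM in control libraries and 32.9, 31.5 and 30.3 FPKM after *Xbp1* siRNA. All knockdown values lay well below all control values, and the mean was 51.4% of control, a log2 fold change of −0.96 (SE 0.043, adjusted p = 6.21e-06 by limma). *Mcm3*, *Mcm4*, *Mcm5* and *Mcm6* fell by smaller amounts, with log2 fold changes of −0.28, −0.35, −0.36 and −0.24, and their groups did not overlap. *Mcm2* was the exception, with 67.8, 65.7 and 64.9 FPKM in control and 65.1, 64.5 and 66.6 FPKM in *Xbp1* siRNA libraries. Its groups overlapped, and the log2 fold change was −0.02 with a 95% interval from −0.098 to 0.067 (adjusted p = 0.76 by limma), or 0.049 after quantile normalization. *Mcm2* and *Mcm7* were the most abundant subunits in control cells, and after knockdown *Mcm7* ranked below *Mcm2*, *Mcm3*, *Mcm4* and *Mcm5*. Summed over the 6 subunits, the level was 295.8 ± 1.497 FPKM (SD, n = 3) in control and 232 ± 2.37 FPKM in *Xbp1* siRNA libraries, or 78.4% of control. *Mcm7* divided by the mean of the other 5 subunits was 1.29, 1.30 and 1.33 in control libraries and 0.815, 0.796 and 0.752 after *Xbp1* siRNA. This ratio was formed with the fall of *Mcm7* known and is given as a description. In the RefSeq table of the hamster genome the *Mcm7* gene overlaps the microRNA genes *Mir106b*, *Mir93* and *Mir25*. The mRNA libraries give no value for these microRNAs.

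**Figure D3:**
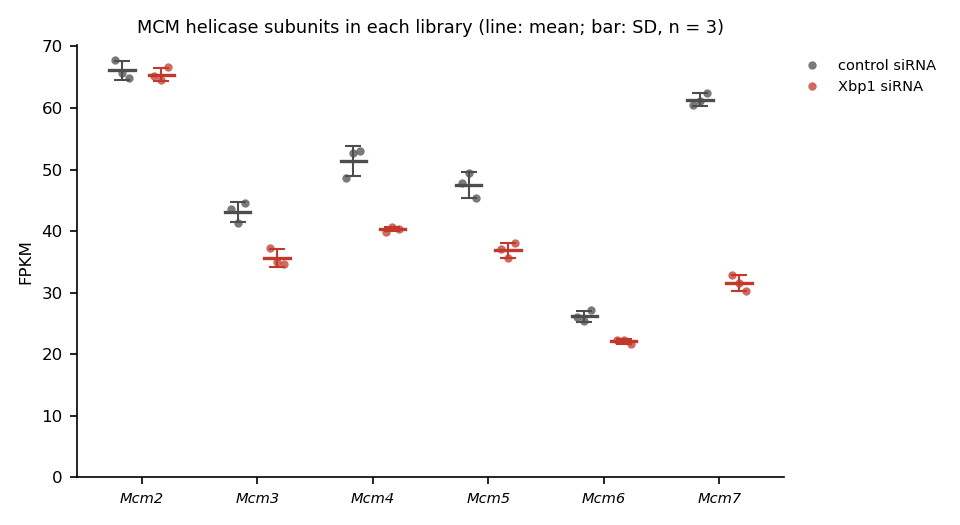
FPKM of the 6 MCM subunits in each library; points are libraries, horizontal lines are means and bars are SD, n = 3 per group. *Mcm7* goes from 60.5 to 62.5 FPKM in control libraries to between 30.3 and 32.9 FPKM after *Xbp1* siRNA, while the 2 groups overlap for *Mcm2*.

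Of the 6 genes that activate the loaded helicase, 2 were called higher (33.3%, against 20.2% of all genes tested), and their calls differed in how firmly they held. *Gins3*, a subunit of the 4-part GINS complex, measured 10.0, 11.3 and 11.3 FPKM in control and 14.2, 14.4 and 14.0 FPKM in *Xbp1* siRNA libraries. The groups were clearly separated, with a log2 fold change of 0.38 (SE 0.068, adjusted p = 0.0035 by limma). *Gins4* had a log2 fold change of 0.18 with an adjusted p of 0.049, just inside the limit, and the call was lost in 10 of 14 other analyses, among them the removal of any 1 of the 6 libraries (adjusted p up to 0.14). In the RefSeq table *Gins4* overlaps *Vps45*. The remaining GINS subunits did not pass the test. *Gins2*, the most abundant of the 6, measured 50.5, 45.9 and 45.6 FPKM in control and 52.1, 48.1 and 49.2 FPKM in *Xbp1* siRNA libraries, and *Gins1* had a log2 fold change of −0.13. *Cdc45*, the helicase cofactor, and *Mcm10*, which is needed for fork firing, had log2 fold changes of −0.13 and −0.29 with adjusted p of 0.086 and 0.097. For both, all knockdown values lay below all control values, but neither passed the threshold, except *Cdc45* when control library 3 was left out (adjusted p = 0.034 by limma).

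Of the 8 polymerase and primase genes, 1 was lower and 1 higher (12.5% each, against 20.2% in each direction among all genes tested). The other 6 did not pass the test. *Pola1*, the catalytic subunit of polymerase alpha, which starts each new strand together with primase, measured 16.7, 18.1 and 16.9 FPKM in control and 13.3, 14.6 and 13.8 FPKM in *Xbp1* siRNA libraries. Its groups did not overlap, and the log2 fold change was −0.31 (SE 0.062, adjusted p = 0.0062 by limma). *Pold2*, an accessory subunit of polymerase delta, the main lagging-strand enzyme, measured 48.9, 47.5 and 44.8 FPKM in control and 55.5, 55.9 and 54.6 FPKM in *Xbp1* siRNA libraries, a log2 fold change of 0.23 (SE 0.043, adjusted p = 0.0040). *Pold2* was thus higher in every knockdown library. *Pold1*, the catalytic subunit of the same enzyme, measured 66.1, 58.4 and 59.2 FPKM in control and 56.3, 54.6 and 54.6 FPKM in *Xbp1* siRNA libraries. The groups were separated, but the log2 fold change of −0.15 had an adjusted p of 0.061. *Prim2*, *Pole2* and *Pola2* had log2 fold changes of 0.25, 0.26 and 0.19 without passing, and *Prim1* and *Pole* had 0.05 and 0.03.

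At the replication fork, 4 of 9 genes of the clamp, clamp loader, single-strand binding protein and Okazaki fragment joining fell (44.4%, against 20.2% of all genes tested). *Rpa1*, the large subunit of the single-strand DNA binding protein RPA, measured 122, 124 and 127 FPKM in control and 101, 97.0 and 99.0 FPKM in *Xbp1* siRNA libraries. The values within each group were close, and the log2 fold change was −0.33 (SE 0.033, adjusted p = 0.00021 by limma). Its partner *Rpa2* had overlapping groups and a log2 fold change of −0.01. *Pcna*, the sliding clamp and the most abundant gene of this group, measured 145, 156 and 148 FPKM in control and 124, 129 and 136 FPKM in *Xbp1* siRNA libraries, a log2 fold change of −0.21 (SE 0.045, adjusted p = 0.0076). All knockdown values lay below all control values, but the adjusted p was 0.074 after quantile normalization. *Lig1*, the ligase that seals Okazaki fragments, measured 18.6, 19.2 and 17.1 FPKM in control and 14.7, 13.1 and 13.3 FPKM in *Xbp1* siRNA libraries, a log2 fold change of −0.41 (SE 0.072, adjusted p = 0.0031). *Fen1*, the flap nuclease that acts just before *Lig1*, had overlapping groups and a log2 fold change of 0.02. Among the small clamp loader subunits, *Rfc4* fell with a log2 fold change of −0.34 (adjusted p = 0.0014), whereas *Rfc2*, *Rfc3* and *Rfc5* had −0.06, 0.25 and 0.12 and were not called. Without control library 2, *Rfc3* and *Rfc5* passed, with adjusted p of 0.021 and 0.047 by limma, and *Rfc3* also passed with either other scaling and with a filter at a mean of 1 FPKM.

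In nucleotide supply, *Tyms* rose and the ribonucleotide reductase subunits did not pass the test. *Tyms*, which encodes thymidylate synthase, the enzyme that makes dTMP, measured 41.1, 40.6 and 43.9 FPKM in control and 56.3, 55.7 and 57.7 FPKM in *Xbp1* siRNA libraries. The groups were far apart, at 135% of control and a log2 fold change of 0.43 (SE 0.043, adjusted p = 0.00022 by limma). *Rrm1*, the large subunit of ribonucleotide reductase, measured 99.1, 105 and 104 FPKM in control and 98.5, 105 and 102 FPKM in *Xbp1* siRNA libraries. These groups overlapped, and the 95% interval of the log2 fold change ran from −0.11 to 0.084, around a value of −0.011 that became 0.065 after quantile normalization. *Rrm2* and *Tk1* had log2 fold changes of −0.09 and 0.14 with adjusted p of 0.11 and 0.076, and *Tk1* passed after quantile normalization (adjusted p = 0.030 by limma). *Uhrf1*, which brings the maintenance DNA methyltransferase to newly copied DNA, measured 32.4, 33.7 and 32.6 FPKM in control and 47.97, 43.9 and 44.9 FPKM in *Xbp1* siRNA libraries. The groups did not overlap, at 138% of control and a log2 fold change of 0.47 (SE 0.047, adjusted p = 0.00022).

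The D-type cyclins moved against each other, and so did their kinases. *Ccnd1* measured 122, 131 and 125 FPKM in control and 97.4, 80.6 and 88.3 FPKM in *Xbp1* siRNA libraries, a log2 fold change of −0.50 (SE 0.068, adjusted p = 0.00092 by limma). *Ccnd2* measured 95.5, 101 and 105 FPKM in control and 70.4, 76.4 and 70.6 FPKM in *Xbp1* siRNA libraries, a log2 fold change of −0.47 (SE 0.049, adjusted p = 0.00028). *Ccnd3* measured 75.2, 72.6 and 70.7 FPKM in control and 93.2, 87.9 and 89.2 FPKM in *Xbp1* siRNA libraries, a log2 fold change of 0.31 (SE 0.040, adjusted p = 0.00076). None of the 3 cyclins had overlapping groups, and *Ccnd3*, the least abundant of them in control cells, averaged 90.1 FPKM after knockdown beside 88.8 FPKM for *Ccnd1*. The summed FPKM of the 3 was 299 ± 5.75 (SD, n = 3) in control and 251 ± 8.53 in *Xbp1* siRNA libraries, or 84.1% of control. Within this sum, *Ccnd3* held 24.4% in control and 35.9% after *Xbp1* siRNA, *Ccnd1* held 42.0% and 35.3%, and *Ccnd2* held 33.6% and 28.9%. The shares of each cyclin did not overlap between the groups, and they too were formed with the changes known.

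Of the kinases that bind these cyclins, *Cdk4* measured 285, 273 and 271 FPKM in control and 311, 305 and 301 FPKM in *Xbp1* siRNA libraries. The groups did not overlap, and the log2 fold change was 0.15 (SE 0.032, adjusted p = 0.0088 by limma), where the adjusted p became 0.053 when the variance was not modelled with an intensity trend. After quantile normalization the log2 fold change of *Cdk4* was 0.30 with an adjusted p of 0.00010. *Cdk6* measured 132, 144 and 153 FPKM in control and 106, 118 and 115 FPKM in *Xbp1* siRNA libraries, a log2 fold change of −0.34 (SE 0.064, adjusted p = 0.0046). In the RefSeq table *Cdk6* overlaps *Dpysl2* and *Pnma2*, and how the counting treated strand is not stated. The sum of *Cdk4* and *Cdk6* was 419 FPKM in both groups (exact permutation p = 0.70), while the ratio of *Cdk4* to *Cdk6* was 1.95 ± 0.201 (SD, n = 3) in control and 2.71 ± 0.193 after *Xbp1* siRNA. *Cdk2* and the cyclin E genes, which act later in G1, did not pass the test. Their log2 fold changes were 0.07 for *Cdk2*, 0.14 for *Ccne1* and −0.37 for *Ccne2*, whose 95% interval ran from −0.79 to 0.056 at a control mean of 3.13 FPKM.

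**Figure D4:**
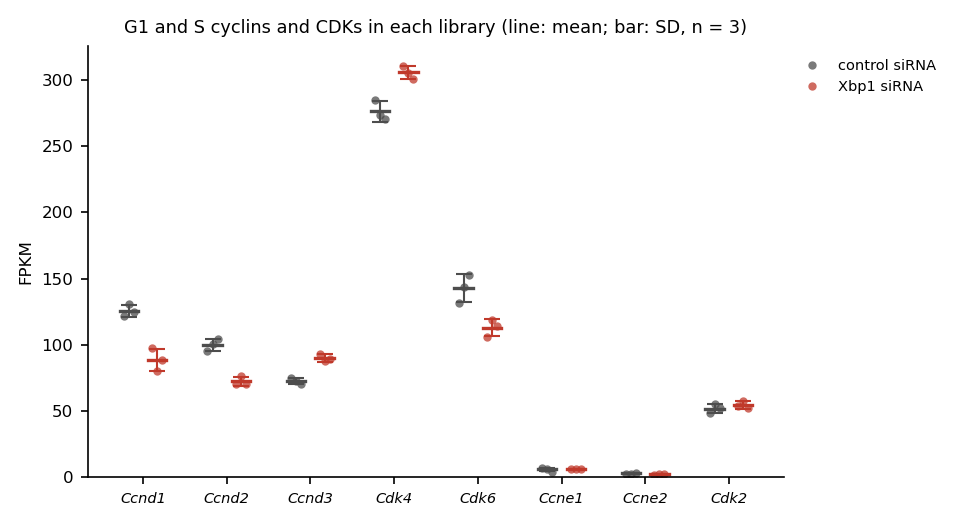
FPKM of the G1 and S cyclin and kinase genes in each library; points are libraries, horizontal lines are means and bars are SD, n = 3 per group. *Ccnd1*, *Ccnd2* and *Cdk6* are lower and *Ccnd3* and *Cdk4* higher after *Xbp1* siRNA, with no overlap between the groups for these 5 genes.

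Both activator E2F genes among the 52 fell. *E2f1* measured 26.4, 24.9 and 25.4 FPKM in control and 17.3, 16.9 and 20.3 FPKM in *Xbp1* siRNA libraries, a log2 fold change of −0.49 (SE 0.077, adjusted p = 0.0018 by limma). *E2f2* measured 2.56, 3.63 and 2.48 FPKM in control and 1.17, 1.14 and 0.990 FPKM in *Xbp1* siRNA libraries. All knockdown values lay below all control values, at 38.1% of control and a log2 fold change of −1.30 (SE 0.19, adjusted p = 0.0013). Its level is among the lowest of the 52, and on the log2(FPKM + 1) scale the log2 fold change was −0.88, smaller in size than the −0.94 of *Mcm7*. The pocket protein genes, whose products hold E2F in check, did not pass. *Rb1* measured 2.07, 2.30 and 2.76 FPKM in control and 2.50, 3.29 and 2.74 FPKM in *Xbp1* siRNA libraries, with overlapping groups, and *Rbl1* had a log2 fold change of 0.22 with an adjusted p of 0.14. Without *E2f2* and *Mcm7*, 15 of 50 genes (30%) were lower and 9 (18%) were higher, against 20.2% in each direction among all genes tested.

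Beyond the 52, a list of 69 other genes of the same pathway was examined, of which 67 were matched by symbol and 66 tested, *Cdkn1c* being listed at 0 in every library. Of the 66, 23 (34.8%) were lower and 13 (19.7%) higher at an adjusted p under 0.05 by limma, and their median log2 fold change was −0.02. Among all genes tested 20.2% were lower and 20.2% higher, so the share higher was at the background and the share lower above it. With the fold limit, 4 were lower (against 2.5% of all genes tested), namely *Cdkn2c*, *Cdkn1a*, *Pole4* and *Rfc1*. With the same limit 0 were higher by limma (against 2.69%), with 42 of the 66 at an unadjusted p under 0.05.

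CDK inhibitors and other regulators of G1-S held the largest share of lower genes among these lists, with 8 of 11 tested (72.7%) lower and 1 (9.09%) higher, against 20.2% in each direction among all genes tested. *Cdkn2c*, which encodes the p18 inhibitor of Cdk4 and Cdk6, measured 23.8, 18.5 and 20.5 FPKM in control and 5.82, 8.10 and 5.35 FPKM in *Xbp1* siRNA libraries. Every knockdown value lay far below every control value, with a log2 fold change of −1.71 (SE 0.16, adjusted p = 0.00018 by limma). *Cdkn1a*, which encodes the p21 inhibitor, measured 65.3, 60.9 and 63.4 FPKM in control and 28.4, 26.4 and 28.8 FPKM in *Xbp1* siRNA libraries, a log2 fold change of −1.18 (SE 0.049, adjusted p = 4.75e-06). All 3 *Cdkn1a* values after knockdown lay below all 3 control values. *Skp2*, the substrate receptor of the ligase that degrades p27, was the 1 gene of the list that rose, from 8.25, 9.60 and 8.98 FPKM in control to 15.7, 14.5 and 14.6 FPKM after *Xbp1* siRNA, a log2 fold change of 0.73 (SE 0.076, adjusted p = 0.00026). The other 6 that fell, named after their values were seen, were *Fbxw7*, *Ccna2*, *Cdc25a*, *Fbxo5*, *Cdkn1b* and *Cks1b*, with log2 fold changes of −0.70, −0.64, −0.48, −0.25, −0.24 and −0.19. *Cdkn2d* and *Myc* were not called.

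**Figure D5:**
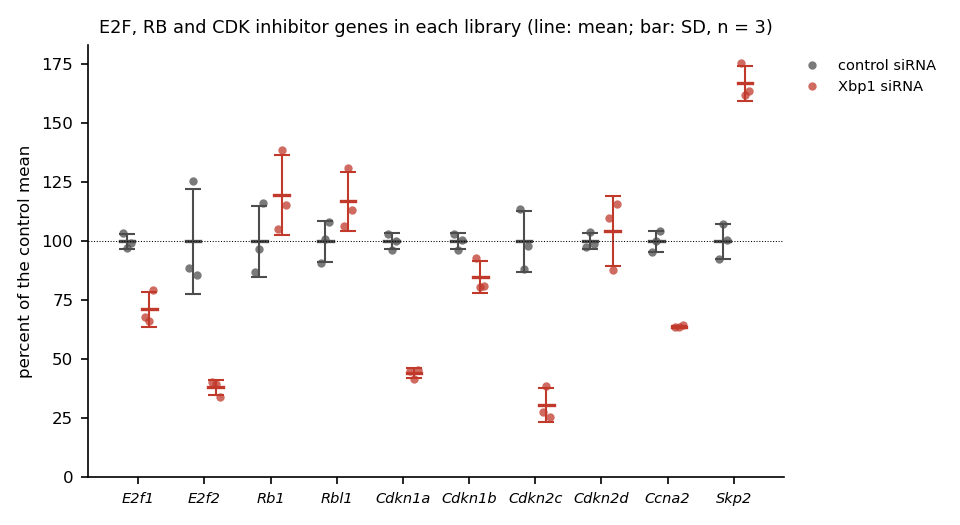
Levels of E2F, pocket protein and CDK inhibitor genes, with *Ccna2* and *Skp2*, in each library, as percent of the control mean of each gene. Points are libraries, horizontal lines are means and bars are SD, n = 3 per group. *E2f1*, *E2f2*, *Cdkn1a* and *Cdkn2c* are lower in all 3 *Xbp1* siRNA libraries than in any control library.

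Of the other fork genes, *Rfc1* and *Pole4* passed the fold limit narrowly. *Rfc1*, the large subunit of the clamp loader, measured 58.7, 61.7 and 61.3 FPKM in control and 29.8, 29.5 and 30.5 FPKM in *Xbp1* siRNA libraries, a log2 fold change of −1.01 (SE 0.040, adjusted p = 3.87e-06 by limma). Its ratio to the mean of *Rfc2* to *Rfc5* was 2.03 ± 0.102 (SD, n = 3) in control and 1.05 ± 0.0222 after *Xbp1* siRNA. The log2 fold change of *Rfc1* fell short of the limit with a pseudocount of 1 (−0.99), after quantile normalization (−0.96) and without control library 2 (−0.9995), while its adjusted p stayed under 0.05. *Pole4*, a small accessory subunit of polymerase epsilon, measured 3.26, 3.29 and 3.33 FPKM in control and 1.67, 1.75 and 1.26 FPKM in *Xbp1* siRNA libraries, a log2 fold change of −1.04 (SE 0.16, adjusted p = 0.0016). On the log2(FPKM + 1) scale it was −0.75, and without *Xbp1* siRNA library 3 it was −0.90. *Dscc1*, a subunit of the alternative clamp loader, had the largest rise of these lists, from a mean of 16.2 ± 1.36 FPKM to 28.2 ± 0.992 FPKM (SD, n = 3), which is 0.80 on the log2 scale (adjusted p = 0.00012 by limma).

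In the remaining lists the calls went both ways, and most shares lay near the 20.2% of all genes tested called in each direction. Of 12 other origin and helicase genes, 3 (25%) were lower and 2 (16.7%) higher, with the largest fall for *Cdc7*, the kinase that fires origins (log2 fold change −0.33), and the largest rise for *Orc5*, an origin recognition subunit (0.57). Of 16 other polymerase, clamp loader and fork genes, 5 (31.2%) were lower and 3 (18.8%) higher. Of 12 other nucleotide supply and chromatin copying genes, 3 (25%) were lower and 4 (33.3%) higher, with *Chaf1a*, a subunit of a histone chaperone that follows the fork, at −0.37. Of 15 other E2F, DP, pocket and MuvB genes, 4 (26.7%) were lower and 3 (20%) higher, with the largest fall for *Lin54*, the DNA-binding subunit of MuvB (−0.56), and the largest rise for *E2f5*, a repressor E2F (0.62).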

How the data were processed

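RNA-Seq libraries (stranded mRNA) from CHO-T cells were compared, 3 with control siRNA and 3 with *Xbp1* siRNA, grouped by sample title. The authors deposited FPKM values, 1 library per file, which are normalized for transcript length and library size. The submitters' processing notes name HISAT2 2.1.0 and Cuffdiff 2.2.1 without their role; the genome build and annotation are not given in the sources used here. Absolute depth is unknown.

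FPKM values are not counts, so the DESeq2 test on raw counts in the study's methods was not run. Instead, limma 3.58.1 in R 4.3.3 (lmFit, and eBayes with trend) was applied to log2(FPKM + 0.1), a scale that understates changes of low genes. Genes averaging under 0.1 FPKM were left out, and p-values were adjusted over all 14361 genes by the Benjamini-Hochberg method. The procedure was tested on simulated data. Ratios and sums were tested by a two-sided exact permutation test. A RefSeq table (assembly CriGri-PICRH) served for names and neighbours only, and 12 of the 52 genes overlap another entry there.

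The members, lists and tests were chosen with earlier results of these data known. Values per library are given for genes past the fold limit, for the largest rise and fall at an adjusted p under 0.05 and the highest level in each role, for the 5 smallest adjusted p, and, added after values were seen, for *Cdt1*, *Cdk6* and *Rb1*. In the other lists, genes past the fold limit and the largest rise and fall per list at an adjusted p under 0.05 are named, except 1 that is not reported here. The other analyses changed the pseudocount (1 or 0.01), the filter (1 FPKM or none), the scaling (median-ratio or quantile) or the trend (none), added the replicate block, or left out each library in turn. Replicate numbers did not pair the libraries, and promoter letters were not analysed here.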

Additional observations from a re-analysis of the deposited data

How the results depend on the processing

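*Xbp1* kept its direction and call under 14 alternatives. For 33 genes chosen by size of change, adjusted p or level, 454 of 462 values did, as did all values of 28 genes. This choice favours stable genes. Left out of the 33 were *Orc2*, *Gins4*, *Cdc45*, *Rfc3*, *Rfc5* and *Tk1*, whose calls changed in some alternatives. Also left out were *Orc1*, *Orc6*, *Rfc2*, *Rpa2*, *Fen1* and *Ccne1*, none of them called, whose direction changed in some. With a pseudocount of 1, 0 of the 52 genes passed the fold limit as lower. Quantile normalization moved the median of the 52 genes to 0.016, and that of all genes tested was 0.016 as well. The same scaling gave log2 fold changes of 0.049 for *Mcm2* and 0.065 for *Rrm1*, both above 0 and not called. Leaving out 1 library put *Mcm2* between −0.030 and 0.0027, above 0 without control replicate 1, and *Rrm1* between −0.037 and 0.014, above 0 without control replicate 2 (0.0079) or *Xbp1* siRNA replicate 1 (0.014). *Pcna* lost its call under quantile normalization (−0.12, adjusted p = 0.074 by limma) and *Cdk4* without the trend (adjusted p = 0.053). The same removals gave 17 to 18 lower and 7 to 10 higher genes of the 52, 20 to 21 lower and 10 to 13 higher of the other 66, beside 2522 to 2676 lower and 2294 to 2640 higher of all genes tested, a median of −0.038 to −0.015 and an *Xbp1* log2 fold change of −3.89 to −3.58. Deviations of libraries with the same number correlated at −0.029, −0.027 and −0.012, so the numbers were not taken as pairs. With the replicate block, 18 of the 52 genes were lower and 8 higher, beside 2875 lower and 2767 higher of all genes tested. *Pold1* was called with this block (log2 fold change −0.15, adjusted p = 0.041 by limma). Without the trend, 6 of the 52 genes were higher, and of all 14361 genes tested 2597 were, against 2898 with it. After quantile normalization 16 of the 52 were lower and 11 higher, beside 2653 lower and 3115 higher of all genes tested. The cause of these differences was not tested. With 3 libraries per group, the SE of up to 0.19 limits what can be said of low genes such as *Rb1* and *Ccne2*.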
